A study of Mus musculus with 6 samples.

Results

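DNA methylation in the dentate gyrus was examined at 10 genes that encode subunits of voltage-gated calcium channels. They were the L-type pore genes Cacna1c and Cacna1d, the presynaptic and R-type pore genes Cacna1a, Cacna1b and Cacna1e, the T-type pore genes Cacna1g, Cacna1h and Cacna1i, and the beta subunit genes Cacnb1 and Cacnb2. Each gene was taken from 1 kb upstream of its start to its end in GENCODE M21, following its strand, and the 10 genes are 10 of 25544 with at least 1 covered site. Together they held 1162 of the 890041 covered cytosines, called sites here, which belonged to 1016 CpGs, with both strands covered at 146.

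The study housed female C57BL/6JRj mice in an enriched environment (ENR) or in standard cages (STD) and measured methylation by reduced representation bisulfite sequencing (RRBS) of micro-dissected dentate gyrus. Each group had 3 mice, all 4.5 months old, with 1 library per mouse. The labels name no allele or drug, and the groups differed in housing. Per the study's methods the mice of an enriched group shared an enclosure, so enclosure and housing cannot be told apart. RRBS cuts DNA at CCGG and reads the cytosines next to the cuts, so it samples CpG-rich sequence most densely. Each value is the percentage of reads at a site that were methylated. The number of reads behind single percentages is unknown beyond the minimum of 10 that the authors set, so no counting interval is given. The tissue is a mixture of cell types, and a change in methylation within a cell type cannot be told apart from a change in cell type shares.

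Voltage-gated calcium channels open when the membrane depolarizes and let calcium into the cell. The alpha1 subunit forms the pore and sets the channel type, and the cytoplasmic beta subunit helps to bring the pore to the membrane and tunes its gating. In neurons, L-type channels couple activity to gene transcription, P/Q-type and N-type channels trigger transmitter release, and T-type channels open near the resting potential and shape burst firing. CpG-rich promoters of active genes are usually unmethylated, whereas CpGs in gene bodies are often methylated.

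The level over all sites of the table ranged from 22.5 to 24.3% in the STD libraries and from 21.3 to 24.2% in the ENR libraries, with ENR3 the lowest of the 6. Over the 1162 sites of the 10 genes it was 24.3, 24.1 and 22.7% in STD1 to STD3 and 24.3, 23.7 and 20.8% in ENR1 to ENR3. The groups overlapped, and the exact two-sided permutation test gave p = 0.7. With 3 against 3 mice this test cannot give a p under 0.1. ENR3 was also the lowest library for 7 of the 10 genes.

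RRBS read the gene start in 5 of the channel genes and not in the other 5. Within 1 kb of the gene start, here called the promoter, 253 sites were covered in Cacna1b (14 sites), Cacna1g (76), Cacna1h (86), Cacna1i (47) and Cacnb1 (30). Cacna1a, Cacna1c, Cacna1d, Cacna1e and Cacnb2 had 0 covered sites there. The 2 kb around the gene start held 1 or 2 CCGG motifs in these 5 genes (Cacna1a and Cacna1e 2 each, the others 1), and 14 in Cacna1b, 30 in Cacna1g, 22 in Cacna1h, 20 in Cacna1i and 15 in Cacnb1. CCGG reads the same on both strands, and 86.3% of 21951 protein-coding genes had at least 1 in this window. Of those with 2 or fewer, 94.7% had no covered site at the start, against 0.396% of those with 14 or more.

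The L-type pore gene Cacna1c was the longest of the 10 genes. It spans 609 kb (chr6:118587240-119196418, minus strand, mm10) and held 275 sites, more than any other of the 10 genes. Its level over the whole region was 24.7, 23.9 and 22.7% in STD1 to STD3 and 23.5, 22.6 and 18.0% in ENR1 to ENR3. The groups overlapped, and ENR minus STD was -2.43 percentage points (SE 1.94, adjusted p = 0.9999 in limma). Without ENR3 the difference was -0.747 percentage points. ENR was the lower library in all 3 same-numbered pairs, a pairing that the labels do not give. With the pairs as a block the adjusted p in limma was 0.957.

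The covered CpG island of Cacna1c lay inside the gene record, 87.5 kb downstream of its start. It spanned chr6:119107324-119108946 and held 119 sites, 60 of them in UTR, 2 in coding exon and 57 in intron, and 12 protein-coding transcripts of the gene started within 1 kb of it. Its mean was between 0.657 and 1.67% in all 6 libraries. The 149 sites of Cacna1c beyond 1 kb of any of its own transcript starts averaged 44.2, 43.1 and 39.1% in STD1 to STD3 and 40.4, 39.2 and 31.5% in ENR1 to ENR3. This mean covers mixed stretches, and its runs of 5 or more sites went from 2.15% to 93.4% over the 6 libraries. The highest had 11 sites, and the lowest, with 6 intronic sites, lay within 1 kb of the start of another gene, Dcp1b. The lowest run without any annotated start within 1 kb stood at 4.55%.

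Cacna1d (chr14:30039939-30491455, minus strand) held 127 sites, with 25.5, 26.2 and 21.8% in STD1 to STD3 and 27.99, 25.2 and 26.4% in ENR1 to ENR3. Its difference of 2.06 percentage points (SE 1.93, adjusted p = 0.9999 in limma) was the most positive of the 10 genes, and the groups overlapped. It was 0.719 without STD3, and medians over sites in place of means turned it to -1.76. As in Cacna1c, its start was read only at an internal position, where 5 transcripts begin about 138 kb downstream of the gene start. The 26 sites of chr14:30353694-30353783 averaged between 0.142 and 1.76% across libraries. The RefSeq promoter window of this start on the minus strand (GRCm38) is shown for its density of CpGs: the 250 bases before the start, chr14:30353487-30353736, hold 50 CpGs, of which the 8 covered ones are in capitals.
Cacna1d internal promoter: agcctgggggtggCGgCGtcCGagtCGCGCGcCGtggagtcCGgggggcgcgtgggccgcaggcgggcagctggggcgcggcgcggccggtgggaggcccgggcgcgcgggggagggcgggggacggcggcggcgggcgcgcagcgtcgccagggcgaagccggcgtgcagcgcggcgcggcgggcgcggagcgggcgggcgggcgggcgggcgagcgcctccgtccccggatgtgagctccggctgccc
All 13 covered sites of the full window, which runs 50 bases past the start, averaged between 0 and 1.69% in the 6 libraries. RefSeq gave 12 such windows for 7 of the 10 genes, and 6 windows, of 6 genes, held covered sites.

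Among the presynaptic and R-type pore genes, Cacna1a (P/Q-type, chr8:84388440-84640246, plus strand) held 139 sites. Its whole-region level was 23.8, 24.4 and 26.1% in STD1 to STD3 and 25.7, 22.9 and 20.96% in ENR1 to ENR3, a difference of -1.61 percentage points (SE 1.85, adjusted p = 0.9999 in limma) that was -0.508 without ENR3. Cacna1e (R-type, chr1:154390731-154884501, minus strand) held 117 sites and had the highest whole-region level, 38.6, 37.8 and 36.2% in STD1 to STD3 and 39.8, 39.5 and 33.6% in ENR1 to ENR3. The group means of Cacna1e differed by 0.0978 percentage points (SE 2.69, adjusted p = 0.9999 in limma). In both genes the covered low-methylated CpG island was internal. In Cacna1a it lay 25.9 kb downstream of the gene start and the mean of its 39 sites did not exceed 2.47% in any library. In Cacna1e it lay 158 kb downstream and the mean of its 16 sites did not exceed 3.68%.

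Cacna1b (N-type, chr2:24603887-24763152, minus strand) was read at its gene start. Its 14 promoter sites averaged 0.595, 1.65 and 1.61% in STD1 to STD3 and 2.37, 0 and 1.04% in ENR1 to ENR3. Its 33 body sites averaged 42.2, 40.3 and 37.5% in STD and 36.03, 47.7 and 42.7% in ENR. The groups overlapped in promoter and body, and the ENR libraries of the body spread more widely (SD 5.84) than the STD libraries (SD 2.40).

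The T-type pore genes had the most densely covered starts. Cacna1g (chr11:94408391-94474198, minus strand) had promoter values of 2.38, 2.46 and 2.33% in STD1 to STD3 and 2.04, 2.54 and 2.18% in ENR1 to ENR3. Its 30 body sites averaged between 40.8 and 48.1% across the 6 libraries. Cacna1h (chr17:25374285-25433783, minus strand) had promoter values between 0.954 and 2.03%, and its 21 body sites averaged between 28.8 and 39.5%. With 86 of its 107 sites in the promoter, Cacna1h had the lowest whole-region level of the 10 genes, 6.42 to 9.34%.

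Cacna1i (chr15:80287238-80398279, plus strand) had the most methylated body of the 10 genes and a promoter whose groups did not overlap. Beyond 1 kb of own transcript starts its body was second, at 59.1%, to that of Cacnb2. The promoter values were 2.66, 1.71 and 2.41% in STD1 to STD3 and 1.47, 0.651 and 1.51% in ENR1 to ENR3, so every ENR mouse was below every STD mouse. The difference was -1.05 percentage points (SE 0.519, adjusted p = 0.993 over 17950 gene promoters in limma). Promoter groups did not overlap in 9.49% of all genes, and Cacna1i was the only one of the 5 tested channel promoters of this kind. With sites within 1 kb of any own transcript start, the Cacna1i groups overlapped and those of Cacnb1 did not (3.69, 2.60 and 2.78% in STD, 4.04, 4.21 and 4.07% in ENR). The 74 body sites averaged 57.5, 55.5 and 52.9% in STD and 56.2, 53.5 and 48.0% in ENR, a difference of -2.74 percentage points (SE 3.80, adjusted p = 0.9998 in limma) that was -0.473 without ENR3 and -4.55 without ENR1. ENR was the lower library in all 3 same-numbered pairs of the body, and the adjusted p with the pairs as a block was 0.958. Only Cacna1c and Cacna1i had all 3 pairs lower over the whole region or the body. The other genes had 1 or 2, and the share over all genes was not computed.

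The beta subunit genes differed in where their sites lay. Cacnb1 (chr11:98001508-98023034, minus strand), the shortest of the 10 genes, had promoter values of 1.45, 0.404 and 1.03% in STD1 to STD3 and 1.38, 1.81 and 2.69% in ENR1 to ENR3. Its 24 body sites averaged 47.3, 47.5 and 47.9% in STD and 44.2, 48.0 and 35.7% in ENR. The body difference of -4.90 percentage points (SE 4.18, adjusted p = 0.9998 in limma) was the most negative of the set, but the groups overlapped, since ENR2 was above all STD libraries. It was -1.45 without ENR3 and -7.59 without ENR2. Cacnb2 (chr2:14603088-14987908, plus strand) held 69 sites, 60 of them within 1 kb of one of its 16 transcript starts. Its whole-region level was 13.3, 13.4 and 13.2% in STD and 12.7, 14.7 and 12.5% in ENR, a difference of 0.0251 percentage points (SE 0.982, adjusted p = 0.9999 in limma).

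**Figure D1:**
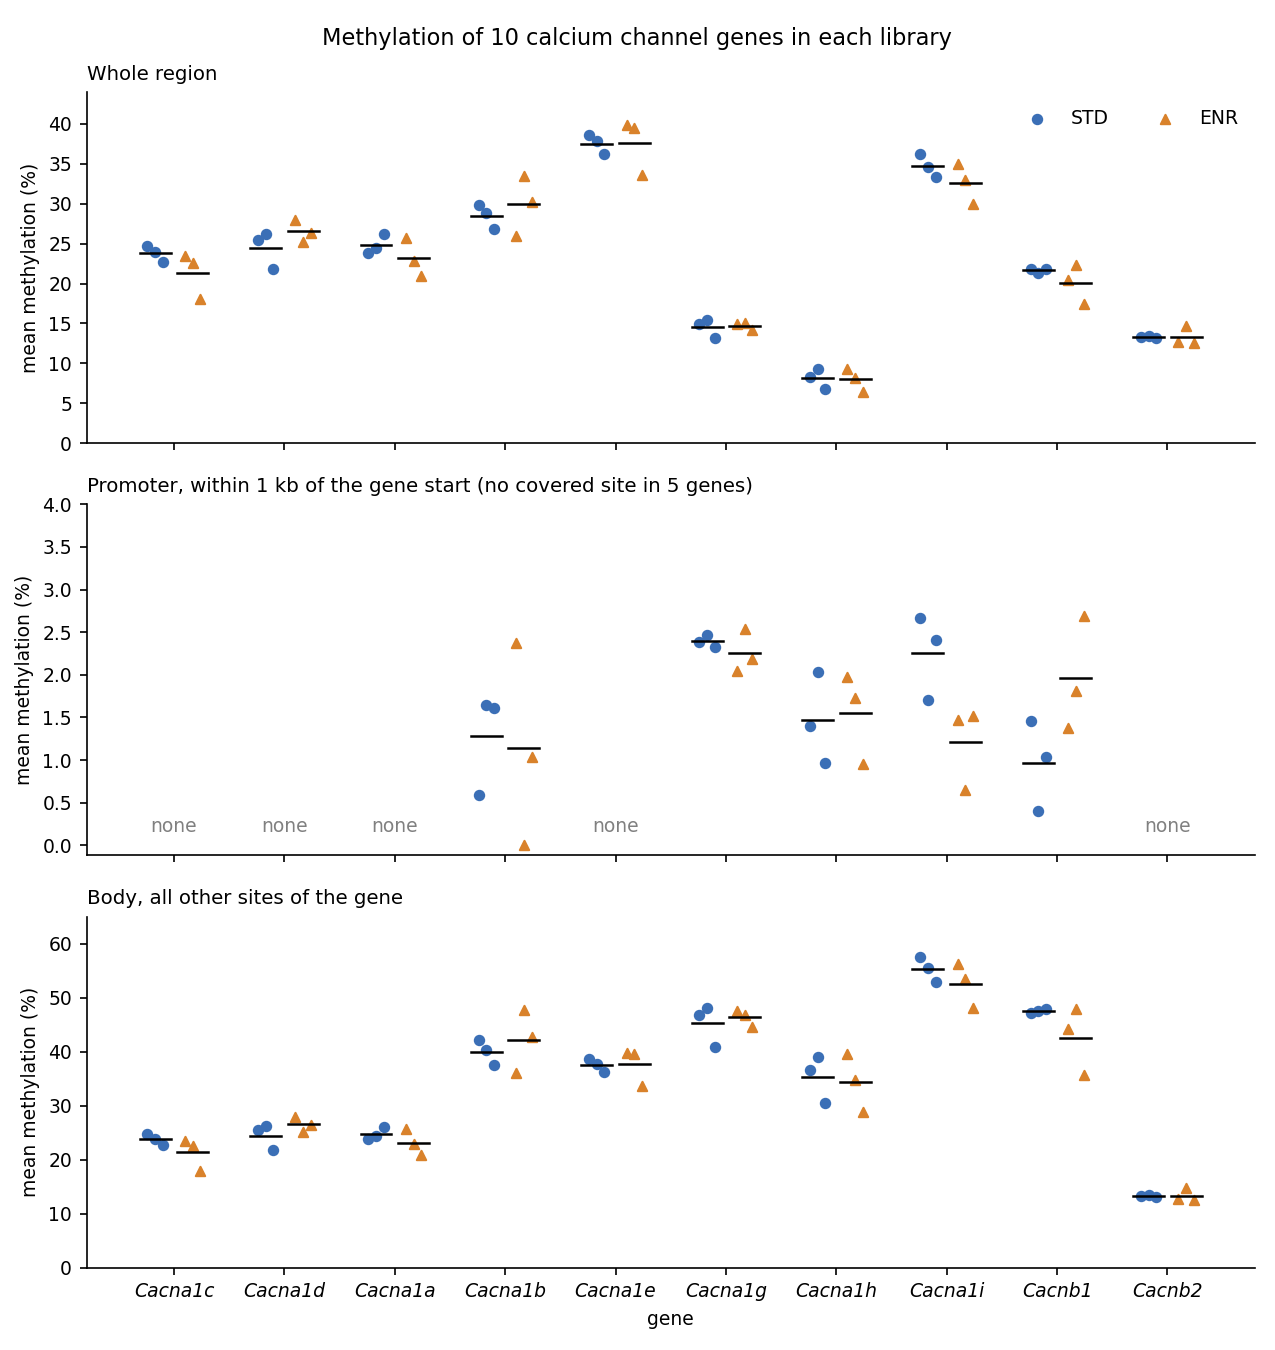
Mean methylation in percent (vertical axes) of the 10 genes (horizontal axis) over the whole region, the promoter and the body, with a point for each mouse, circles for STD, triangles for ENR, and bars for group means. Promoters lie under 3% where they were covered, bodies between 12.5 and 57.5%, and only the Cacna1i promoter shows groups that do not overlap.

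Housing did not detectably separate the 10 genes at the level of the gene. None of them passed an adjusted p under 0.05 over the whole region, the promoter or the body, and 0 passed an unadjusted p under 0.05. The same limma fits called 0 of 22934 genes, 0 of 17950 promoters and 0 of 14012 bodies, a background of 0%, while 886, 788 and 493 of them had an unadjusted p under 0.05. Over the whole region 5 channel genes were higher and 5 lower in ENR (57.7% of all genes were lower), with a median difference of -0.0547 percentage points, beside -0.194 over all genes. No whole region and no body of a channel gene had groups that did not overlap, against 8.47% of whole regions and 7.91% of bodies in the table. Without ENR3, 4 of the 10 genes were lower in ENR and 6 were higher.

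**Figure D2:**
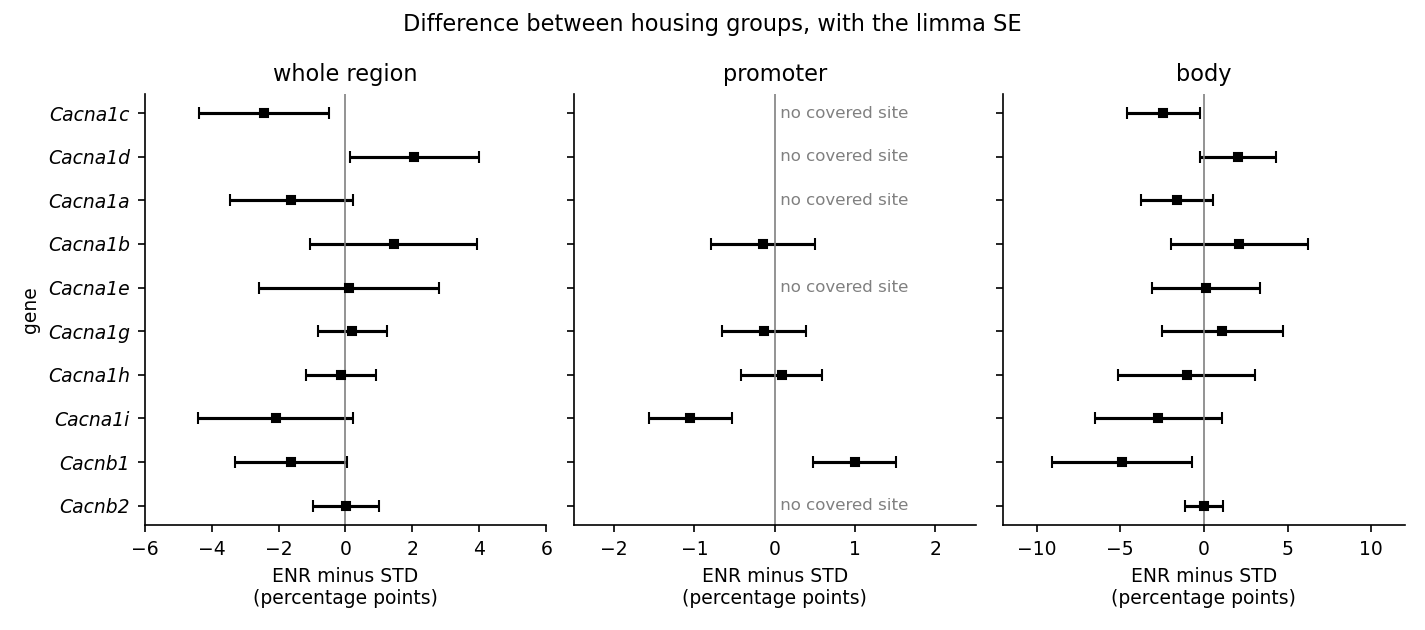
ENR minus STD in percentage points (horizontal axes) for each gene (vertical axis), as the difference of group means with its limma standard error, for the whole region, the promoter and the body. Differences run from -2.43 to 2.06 for whole regions, -1.05 to 0.995 for promoters and -4.90 to 2.12 for bodies.

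The promoter was less methylated than the body in each of the 5 channel genes where both were covered. The within-library difference was -33.3 percentage points in Cacna1h (SE 1.62), -39.8 in Cacna1b (SE 1.996), -43.5 in Cacna1g (SE 1.46), -43.6 in Cacnb1 (SE 2.17) and -52.2 in Cacna1i (SE 1.69). All 5 passed limma's test, with adjusted p-values of at most 4.53e-07. At the threshold of 0.05, 82.4% of the 9152 genes tested passed in this direction. None of the 5 was higher in the promoter, beside 5.38% of all genes. With promoters taken at any transcript start the test reached all 10 genes, each lower at its starts, from -24.7 percentage points in Cacna1d to -87.0 in Cacnb2, against a background of 84.2%. The gap between promoter and body did not differ detectably with housing: ENR minus STD of the gap ran from -2.27 percentage points in Cacna1b (SE 4.25) to 5.90 in Cacnb1 (SE 4.09), and all 5 genes had an adjusted p of 0.9999 in limma. The Cacnb1 value was 2.08 without ENR3. For this comparison 0 of 9152 genes were called, a background of 0%.

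The order of the gene bodies by level was the same in all libraries at some places and not at others. Averaged over the 6 libraries, Cacna1i stood first at 53.9% ± 3.35 (SD, n = 6), above Cacna1g at 45.8% ± 2.72 in all 6 libraries. Cacna1g and Cacnb1 (45.1% ± 4.80) kept their order in 3 of 6 libraries and so were not distinct. Cacna1b (41.1%), Cacna1e (37.6%) and Cacna1h (34.9%) followed, each above the next in 5 of 6 libraries. Cacna1h was above Cacna1d (25.5%) in all 6. Cacna1d was above Cacna1a (24.0%), and Cacna1a above Cacna1c (22.6%), in 5 of 6 libraries, by steps of 1.53 and 1.40 percentage points that were smaller than the SDs of 1.90 to 2.37. Cacnb2 was last at 13.3% ± 0.775. Leaving out sites within 1 kb of own transcript starts changed the order: Cacnb2 then stood at 89.0% ± 4.91 over 9 sites and became the highest, and the other 9 genes lay between 35.4 and 59.1%.

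Runs of neighbouring sites showed where the methylated and unmethylated stretches of the genes were. Sites of a gene with gaps of at most 200 bp were joined, which gave 61 segments of 5 or more sites with 889 of the 1162 sites. In 28 of the 61 segments the mean was under 20% in all 6 libraries (45.9%), beside 54.9% of 43698 segments in the whole table. Within 1 kb of an own transcript start, 20 of 21 segments were of this kind. The exception was a Cacna1d segment near the gene end (chr14:30045615-30045760, noncoding exon), which stood at 90.3 to 100% although an annotated transcript started 0.218 kb away. The other segments over 80% in all libraries were in introns of Cacna1c, Cacna1e and Cacna1i.

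Away from the gene starts, 19 segments with 387 sites in 6 genes had low methylation in every library. Own transcripts began within 1 kb of 11 of them, protein-coding ones at 10. At 2 others a neighbouring gene began, Dcp1b inside the Cacna1c record (6 sites, 0.877 to 3.44%) and Dcp1a inside the Cacna1d record (23 sites, 0.790 to 2.90%). The remaining 6 segments, with 43 sites in 4 genes, had no annotated start within 1 kb. Because they lie apart from annotated starts, the 5 shorter than 200 bp are printed here on the plus strand of mm10 with covered CpGs in capitals.
Cacna1a intron, chr8:84554302-84554396: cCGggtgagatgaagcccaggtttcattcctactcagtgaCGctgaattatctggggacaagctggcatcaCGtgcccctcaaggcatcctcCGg
Cacna1a coding exon and intron, chr8:84559658-84559705: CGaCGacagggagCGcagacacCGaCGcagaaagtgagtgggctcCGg
Cacna1c intron, chr6:118938590-118938737: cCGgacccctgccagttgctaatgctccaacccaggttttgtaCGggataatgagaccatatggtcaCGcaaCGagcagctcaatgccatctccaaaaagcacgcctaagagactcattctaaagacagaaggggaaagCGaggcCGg
Cacna1c coding exon, chr6:119057317-119057388: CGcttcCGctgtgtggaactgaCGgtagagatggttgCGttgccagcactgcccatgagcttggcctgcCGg
Cacna1g intron, chr11:94472410-94472479: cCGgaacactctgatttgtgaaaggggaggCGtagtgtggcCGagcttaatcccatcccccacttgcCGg

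These stretches were low but not uniformly so. The Cacna1a intron segment ranged from 5.58 to 15.7% across libraries over 6 sites, and the Cacna1a exon segment from 0 to 10.1% over 6 sites. The Cacna1c intron segment ranged from 1.15 to 12.1% over 6 sites and the Cacna1c coding segment from 4.21 to 19.5% over 5. The Cacna1g segment, 1.72 kb from the gene start, ranged from 8.77 to 13.4% over 6 sites. The longer sixth segment, in a Cacna1e intron (chr1:154723232-154723696), ranged from 2.98 to 7.82% over 14 sites. Of the 6, the Cacna1a exon segment had all of its sites in sequence with at least 50% G and C and a CpG observed to expected ratio of at least 0.6 in the surrounding sequence, and the Cacna1a intron, Cacna1c coding and Cacna1g segments had 0 such sites.

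**Figure D3:**
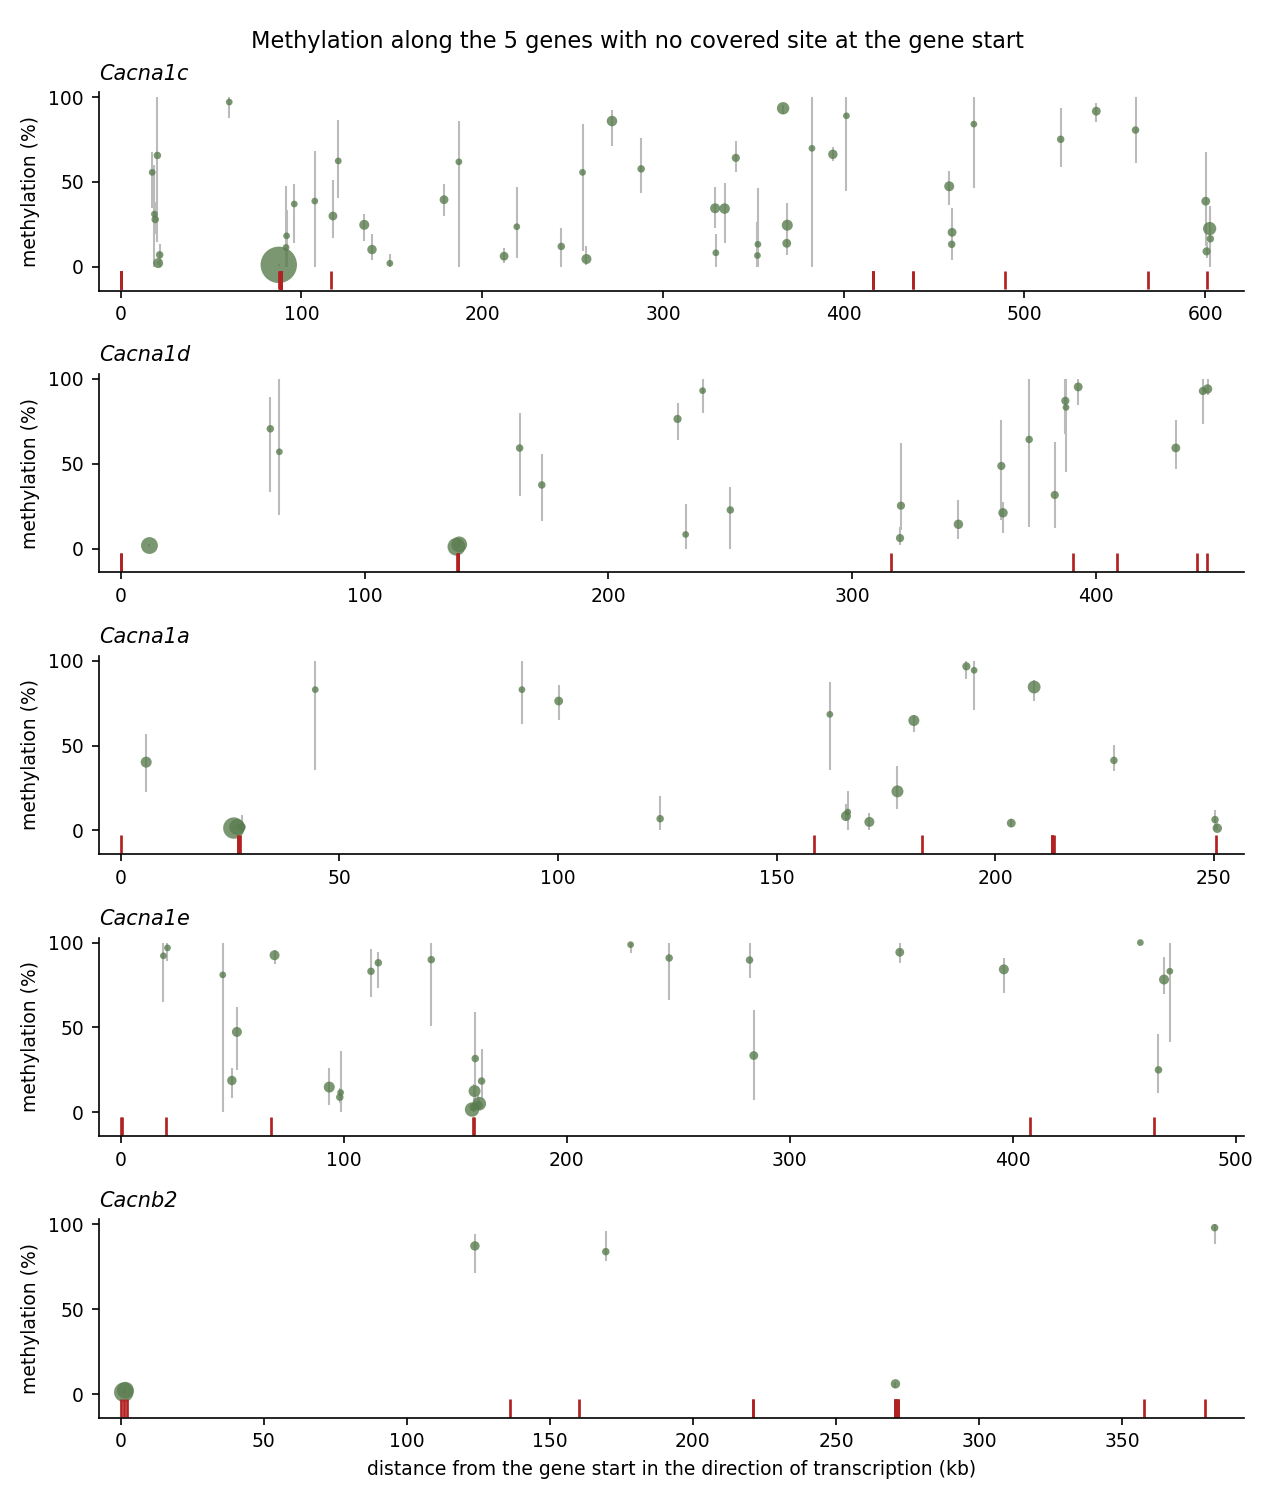
Mean methylation of each segment over the 6 libraries in percent (vertical axes) against distance from the gene start in kb (horizontal axes) for the 5 genes without a covered gene start. Point area grows with the number of sites, grey lines span the lowest and highest library, and red ticks mark annotated transcript starts. The large points near 0% sit at internal starts, such as the 119-site island of Cacna1c.

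Exons and introns of the gene bodies differed in opposite directions in different channel genes, and some of these differences turned on sites near internal transcript starts. Exonic body sites were less methylated than intronic ones in 5 genes, with exon minus intron of -3.31 percentage points in Cacna1a, -19.5 in Cacna1c, -24.3 in Cacnb2, -25.1 in Cacna1e and -32.7 in Cacna1b. Exonic sites were more methylated in 4 genes, by 6.55 percentage points in Cacnb1, 6.75 in Cacna1i, 28.9 in Cacna1g and 34.8 in Cacna1d. Cacna1h did not pass (1.47 percentage points, SE 1.83, adjusted p = 0.499). In the table as a whole, limma called 73.6% of 4761 genes, 36.2% with lower and 37.4% with higher exons. The Cacna1i call was lost without ENR3 or without any one STD mouse, with adjusted p-values of 0.0586 to 0.0709. Many exonic sites lay within 1 kb of an own transcript start, namely all 36 of Cacnb2, 13 of 14 in Cacna1e, 66 of 89 in Cacna1c and 5 of 10 in Cacna1d. Without sites near starts, an alternative chosen after seeing the data, Cacnb2 and Cacna1e had too few exonic sites for a test. The exons stayed lower in Cacna1a (-7.21 percentage points), Cacna1c (-15.1) and Cacna1b (-34.8) and higher in Cacna1g (28.9 over 5 exonic sites). Cacna1d turned from higher to lower exons (-15.3 percentage points over 5 exonic sites, adjusted p = 0.000131 in limma), and Cacna1h passed with higher exons (49.9 over 3 exonic sites). Cacna1i (-1.04, adjusted p = 0.717) and Cacnb1 (-3.07, adjusted p = 0.126) no longer passed. So 6 of the 8 tested channel genes passed, beside 72.8% of 2955 genes, 27.3% with lower and 45.5% with higher exons.

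Single sites showed larger differences than genes did. The difference of group means was over 25 percentage points at 36 of the 1162 sites (3.10%), beside 1.94% of all sites, and 24 of these were lower in ENR (2.07%, beside 1.23%) and 12 higher (1.03%, beside 0.706%). All 36 lay in bodies, 28 in introns, 6 in coding exons and 2 in UTR, and 1 lay within 1 kb of an own transcript start. In Cacna1c all 11 such sites were lower in ENR, in Cacna1d 6 of 7 were higher, and Cacna1g, Cacna1h and Cacnb2 had 0. Leaving out a mouse raised the count, to 58 without STD3 and 69 without ENR1. The excess of lower sites turned on ENR3, since 22 were lower and 24 higher without it. At 10 of the 36 the groups also did not overlap (0.861% of the sites, beside 0.810% of the table). None was called at an adjusted p under 0.05, as was 0 of 615152 sites tested, a background of 0%. At this size the site test did not call even large shifts in simulated data, so it cannot separate sites that differ from those that do not. An unadjusted p under 0.05 was reached by 35 of 843 tested channel sites (4.15%, beside 2.68%).

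In 5 genes there was a site over 25 percentage points whose groups did not overlap, and in each gene the one with the lowest p is given with its surrounding sequence. The 33 bases are the plus strand of mm10 with the covered CpG in the middle, and capitals mark every covered CpG.
Cacna1a, intron, chr8:84569815-84569847: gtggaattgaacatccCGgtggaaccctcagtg
Cacna1b, intron, chr2:24677428-24677460: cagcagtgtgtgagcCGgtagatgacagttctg
Cacna1c, intron, chr6:119078981-119079013: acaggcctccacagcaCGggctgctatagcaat
Cacna1d, intron, chr14:30318653-30318685: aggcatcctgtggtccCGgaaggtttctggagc
Cacna1i, coding exon, chr15:80372289-80372321: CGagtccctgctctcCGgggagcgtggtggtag

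The Cacna1i site, on the minus strand 85.1 kb from the gene start, was methylated at 89.2, 100 and 100% in STD1 to STD3 and at 43.2, 37.5 and 45.5% in ENR1 to ENR3. This gap of -54.3 percentage points (SE 8.60, adjusted p = 0.852 in limma) left the ENR mice close together. Of the 7 sites within 100 bp, 2 were lower in ENR, and their mean difference was 6.70 percentage points in the other direction. The difference at this cytosine was not shared by most of its neighbours, though the nearest one, on the same strand, was lower too (-24.9 percentage points).

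At the Cacna1d site, which had 0 covered neighbours within 100 bp, STD mice stood at 22.7, 10.7 and 0% and ENR mice at 57.7, 57.1 and 53.6%. It was the only one of the 5 that was higher in ENR (45.0 percentage points, SE 14.7, adjusted p = 0.852 in limma). The Cacna1b site stood at 76.9, 61.5 and 57.1% in STD and at 0, 21.4 and 20.8% in ENR, with a difference of 0.849 percentage points at its 1 neighbour. Its own difference was -51.1 percentage points (SE 15.2, adjusted p = 0.852 in limma).

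At the Cacna1c site all ENR mice were at 0%, and STD mice were spread over 50, 13.9 and 70% (-44.6 percentage points, SE 16.2, adjusted p = 0.852 in limma). Both of its neighbours within 100 bp were lower in ENR too, by a mean of -20.2 percentage points. The Cacna1a site stood at 28.6, 66.7 and 59.4% in STD and at 25, 0 and 5.88% in ENR, with STD1 and ENR1 only just apart (-41.2 percentage points, SE 16.8, adjusted p = 0.852 in limma). None of these 5 sites was covered on its opposite strand.

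**Figure D4:**
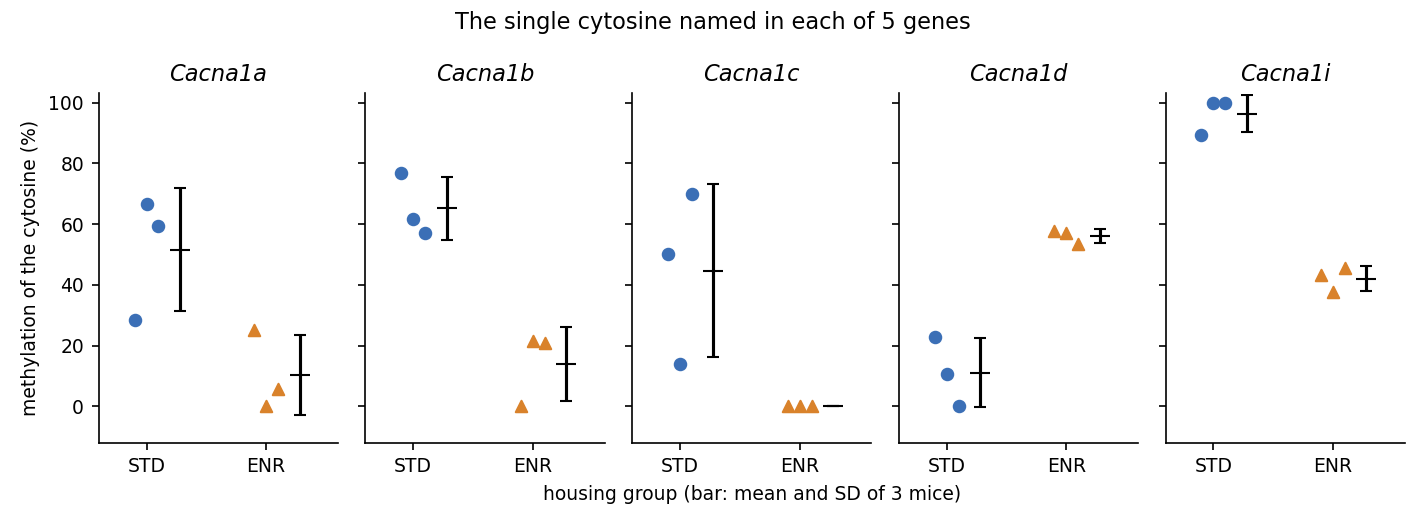
Methylation in percent (vertical axis) of the single cytosine named in Cacna1a, Cacna1b, Cacna1c, Cacna1d and Cacna1i, with a point for each mouse and a bar for the mean and SD of 3 mice per group. The sites of Cacna1a, Cacna1b, Cacna1c and Cacna1i lie lower in ENR and the Cacna1d site lies higher, and the STD mice of Cacna1c are spread from 13.9 to 70%.

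Tiles of 1 kb gave a view between sites and genes. The channel genes held 104 tested tiles with at least 3 sites, and the groups did not overlap in 15 (14.4%, beside 8.88% of 72222 tiles), 9 of them lower and 6 higher in ENR. An unadjusted p under 0.05 was reached by 4 (3.85%, beside 3.98%), and limma called 0 tiles in the table, a background of 0%. Of the 61 segments, 10 had groups that did not overlap (16.4%, beside 9.04%), 6 lower and 4 higher. In each of 7 genes a tile with separated groups could be named by the lowest p.

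The tile at the start of Cacnb1 (chr11:98023001-98024000), which also overlaps the gene Gm11629, was at 0% in all STD mice and at 7.93, 6.23 and 7.08% in ENR1 to ENR3. Its difference of 7.08 percentage points had an SE of 0.750 and an adjusted p of 1 in limma. The tile rests on 4 sites, of which 1 was at 0% in every mouse and the other 3 were above 0% in different sets of ENR mice. At the site 93 bases upstream of the gene start ENR1 stood at 31.7%, whereas at the sites 14 bases downstream and 56 bases upstream only ENR2 and ENR3 were above 0%. The span of the 4 sites, chr11:98023000-98023128 on the plus strand, is printed with the covered CpGs in capitals.
Cacnb1 gene start: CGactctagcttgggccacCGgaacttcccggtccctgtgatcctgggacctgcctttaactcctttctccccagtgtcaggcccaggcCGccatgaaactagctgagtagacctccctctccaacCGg

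At the far end of Cacna1c, the tile chr6:118593001-118594000 covered coding exon and UTR 602 kb from the gene start. Its 15 sites averaged 31.2, 28.7 and 24.9% in STD1 to STD3 and 17.5, 23.0 and 4.81% in ENR1 to ENR3, a difference of -13.2 percentage points (SE 5.94, adjusted p = 1 in limma). Without single mice it ran from -17.1 to -8.01 percentage points. In the main run of this tile 11 of the 13 sites were lower in ENR, and the differences went from -32.7 to 10.6 percentage points. The groups of this run overlapped, since ENR2 was above STD3 there. The separation of the tile therefore depended on its remaining sites, which lay outside the run.

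Tiles with separated groups were also named in 5 other genes. The Cacna1d intron tile (chr14:30171001-30172000, 6 sites) stood at 10.7, 14.1 and 7.52% in STD and 14.2, 15.6 and 32.3% in ENR, with ENR3 the highest, and its difference of 9.98 percentage points was 4.18 without ENR3. The Cacna1g intron tile (chr11:94442001-94443000, 3 sites) stood at 79.4, 84.6 and 80.9% in STD and 89.6, 88.9 and 88.4% in ENR (adjusted p = 1 in limma). The Cacna1h tile 0.938 kb from the gene start (chr17:25432001-25433000, 10 sites) averaged 6.52% in STD and 2.001% in ENR (adjusted p = 1 in limma), a difference of -4.52 percentage points that was -2.74 without STD2. The Cacna1a intron tile (chr8:84554001-84555000, 7 sites) averaged 11.3% and 6.32% (adjusted p = 1 in limma), and it contains the low intron segment printed above. The Cacna1i tile at the gene start (24 sites) averaged 1.36% and 0.197% (adjusted p = 1 in limma). Its STD3 value came from a single cytosine at 36.6%, with every other site at 0% in STD3. The ENR mice were above 0% at a single other site, which was at 0% in all STD mice. The Cacna1d tile had an adjusted p of 1 as well.

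A coding exon of Cacna1i, chosen after its values were seen, held a run of 10 sites at which most cytosines differed in the same direction. Over chr15:80358884-80359025 the means were 50.3, 50.9 and 51.9% in STD1 to STD3 and 37.1, 34.3 and 42.9% in ENR1 to ENR3, and 9 of the 10 sites were lower in ENR. The exon with the single named Cacna1i cytosine behaved otherwise: its 9 sites averaged 85.4, 84.6 and 81.7% in STD and 84.5, 77.0 and 87.9% in ENR, with overlapping groups.

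**Figure D5:**
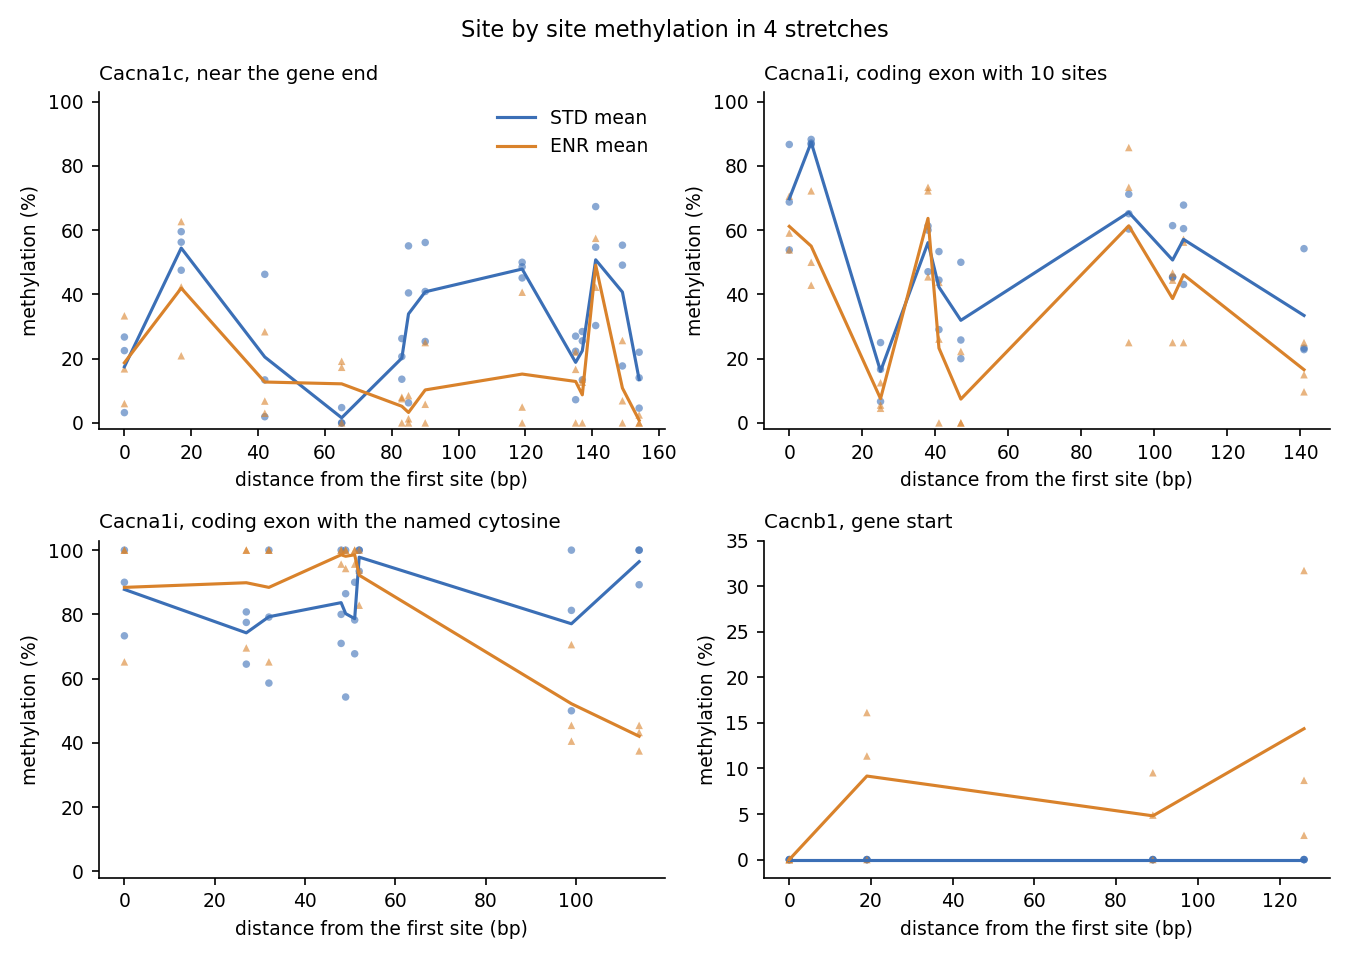
Methylation in percent (vertical axes) against distance from the first site in bp (horizontal axes) in 4 stretches of Cacna1c, Cacna1i and Cacnb1, with a point per mouse and lines joining group means. In the Cacna1i exon with 10 sites the ENR line lies below the STD line at 9 of them, and at the Cacnb1 start all STD points are at 0%.

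Sequence composition went with the level of the sites. The 603 island-like sites, with the same G and C and CpG criteria as above, averaged 6.92% over the 6 libraries, and the 559 other sites averaged 41.0%. Island-like sites stood at 7.79, 7.10 and 7.05% in STD1 to STD3 and at 6.44, 6.94 and 6.22% in ENR1 to ENR3. These groups did not overlap, by a difference of -0.779 percentage points, and this was the only such class of the 9 compared, which share sites. Most of this difference lay in the 86 island-like sites beyond 1 kb of own transcript starts. These differed by -5.38 percentage points with overlapping groups (43.1, 37.7 and 40.98% in STD, 34.7, 38.6 and 32.3% in ENR). Island-like sites were not compared over the whole table. The level also went with place: these 86 sites averaged 37.9% over the 6 libraries, and 114 sites that were not island-like but lay within 1 kb of a start averaged 11.5%. By annotation, sites upstream of the genes averaged 2.20%, UTR sites 3.46%, noncoding exon sites 17.1%, intron sites 29.6% and coding exon sites 32.7%.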

How the data were processed

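RRBS libraries of dentate gyrus DNA from 3 STD and 3 ENR mice were compared. Per the labels and the study's methods, the authors trimmed reads with Trim Galore 0.4.0 and cutadapt 1.8.1, removed 2 further bases from reads with adapter, mapped them to mm10 with Bismark 0.16.1, and kept cytosines with at least 10 reads with methylKit 1.5.2. These versions are those of the submitters' processing notes, and the study's methods name other versions of Trim Galore and Bismark. The deposited values are the percent of reads methylated at each cytosine and library. The table held 890041 sites, of which 890021 are CpGs in GRCm38, with 0 missing values. Read numbers were not used, so all sites counted equally whatever their coverage, and the study's chi-squared test on reads was not run.

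Sites were assigned to genes by GENCODE M21 gene records and averaged per gene, promoter, body or 1 kb tile where at least 3 sites were covered. Group differences were tested on percentages with limma 3.58.1 in R 4.3.3 (lmFit, eBayes with a variance trend) over all features of the table, with Benjamini-Hochberg adjustment at 0.05. Sites and tiles also needed a difference over 25 percentage points. Promoter minus body, and exon minus intron, were tested as within-library differences. The mean over all channel sites, which no such fit holds, was compared by an exact permutation test (two-sided, 20 regroupings). The scripts were tested on simulated data, and shifted genes were recovered. Recovery of shifts as small as the differences seen here was not tested. The absence of gene, promoter or body calls therefore carries no information about shifts of that size. A site test with 3 against 3 mice over this many sites made no calls even for very large simulated shifts. The absence of site calls thus carries no information about single sites. The mice are separate animals, and p-values measure the spread between them.

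The labels do not say whether the library numbers pair the groups, and the values do not settle it. Deviations from the group means over all sites correlated at 0.157, 0.130 and 0.322 between same-numbered libraries and at -0.221 to 0.121 between the others. A fit with the number as a block was therefore run as an alternative.

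Named sites were, in each gene, the site of lowest p among those over 25 percentage points with groups that did not overlap, and named tiles were chosen likewise without the limit. Named segments held at least 5 sites, lay more than 1 kb from the gene start and were under 20% in all 6 libraries. The genes and lists were chosen with earlier results of these data known.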

Additional observations from a re-analysis of the deposited data

How the results depend on the processing

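Alternatives were an arcsine square root scale, no variance trend, medians over sites, a minimum of 10 sites or none, averaged strands, subtraction of each library's mean, promoters at any transcript start, 500 bp tiles, and leaving out each mouse. Whole regions and bodies gave 0 calls in limma under each of these that applies to them. Sites and tiles also gave 0, but were refitted only on the arcsine scale, without a variance trend, without single mice and, for tiles, at 500 bp. Gene promoters gave 1 call on the arcsine scale and 40 after subtraction of the library mean (22 higher, 18 lower), 0 of them in the channel genes. That subtraction moved the median difference of all whole regions from -0.194 to 0.310 percentage points. The fit with the replicate block, by which same-numbered libraries were paired, also gave 0 calls for genes, promoters, bodies, sites, tiles and the gap between promoter and body by housing. Promoter against body and exon against intron were not refitted with it.

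The number of channel genes with a lower promoter went from 5 to 10 with promoters at any transcript start, because 5 more genes could be tested. Channel sites over 25 percentage points numbered 71 at a limit of 20 and 5 at a limit of 40, and 46 to 69 without single mice. The 19 low segments became 25 with gaps of at most 100 bp, 15 with 500 bp and 13 under 10%, settings chosen after seeing the data. Of 15 other channel complex genes, 11 were lower in ENR, and 5 to 13 were without single mice (5 without ENR3). Exon and intron differed in 8 to 9 channel genes without single mice. Without body sites within 1 kb of own transcript starts, an alternative chosen after seeing the data, exon minus intron turned to -15.3 (Cacna1d), -1.04 (Cacna1i) and -3.07 (Cacnb1) percentage points.

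Differences between groups changed direction, among them the most positive whole region (Cacna1d) and body (Cacna1b), none of them called. For whole regions, medians turned Cacna1d to -1.76 and Cacnb1 to 0.883, averaged strands turned Cacna1g to -0.106 and Cacnb2 to -0.00607, and subtraction of the library mean turned Cacna1h to 0.367 percentage points. For promoters, that subtraction turned Cacna1b to 0.356 and Cacna1g to 0.364. With promoters at any start, Cacna1h turned to -0.214 in the promoter, 0.319 in the body and -0.533 in the gap between them. Averaged strands turned the Cacna1g body to -0.0227. Without single mice, whole regions ranged from -0.337 to 3.40 (Cacna1b), -0.985 to 2.12 (Cacna1e), -0.440 to 0.644 (Cacna1g), -0.818 to 0.647 (Cacna1h) and -0.677 to 0.416 (Cacnb2). Promoters ranged from -0.764 to 0.423 (Cacna1b) and -0.166 to 0.384 (Cacna1h). Bodies ranged from -0.659 to 5.16 (Cacna1b), -1.13 to 2.53 (Cacna1g) and -3.61 to 1.73 (Cacna1h). The gap between promoter and body changed with housing by -5.93 to 1.08 (Cacna1b), -2.64 to 0.960 (Cacna1g), -1.34 to 3.49 (Cacna1h) and -0.725 to 3.37 (Cacna1i). Without single mice, whole regions that kept their direction ranged from 0.719 to 2.90 (Cacna1d), -2.86 to -0.508 (Cacna1a), -3.48 to -0.747 (Cacna1c), -3.24 to -0.755 (Cacna1i) and -2.78 to -0.294 (Cacnb1). The cause of these changes was not tested. Unknown read numbers and 3 mice per group limit all values given here.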

Other observations

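The other genes of the channel complex were fitted in the same way, over the whole region. They are the pore genes Cacna1s and Cacna1f, the beta genes Cacnb3 and Cacnb4, the alpha2delta genes Cacna2d1 to Cacna2d4 and the gamma family genes Cacng1 to Cacng8. Of these 16 genes 15 had enough sites for a test, Cacna1f having 1 site. Limma called 0 of the 15 between ENR and STD, 11 were lower (57.7% of all genes were) and 4 higher in ENR, and their median difference was -0.732 percentage points, beside -0.194 over all genes. Without ENR3, 5 of the 15 were lower. No whole region among them had groups that did not overlap, beside 8.47% of all genes. Of their 10 tested promoters 1 did, that of Cacng6, beside 9.49% of all promoters. It averaged 3.24% in STD and 2.52% in ENR. The most negative difference was that of Cacna2d4 (33.3% in STD and 29.8% in ENR over 47 sites) and the most positive that of Cacna1s (68.8% and 71.1% over 10 sites).

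The promoter was less methylated than the body in 9 of the 10 of them where both were covered, with a median difference of -32.9 percentage points. Cacnb3, which encodes another beta subunit and is named because its values were seen, was the exception. Its 21 promoter sites averaged 30.1% in STD and 29.8% in ENR, and its 83 body sites averaged 16.4% and 16.8%, so that the promoter was higher by 13.4 percentage points (SE 0.974, adjusted p = 4.35e-06 in limma). A higher promoter was called in 5.38% of all genes. With sites near any transcript start counted as promoter, the Cacnb3 difference was -19.4 percentage points, while Cacna1s, tested only then, had the higher promoter by 48.4 percentage points over 6 promoter and 4 body sites (adjusted p = 1.59e-05 in limma).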
